A study of Mus musculus with 20 samples.

Results

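Ribosomes are built in the nucleolus, where RNA polymerase I copies the repeated ribosomal RNA (rRNA) genes and where small nucleolar ribonucleoproteins (snoRNPs), processing factors and ribosomal proteins turn the long precursor into the small and the large subunit. Mouse eggs and early zygotes hold compact nucleolus precursor bodies with little rRNA synthesis, and working nucleoli form during the first cleavages as the embryo starts to transcribe its own genome. The 35 genes described here were chosen by name for these roles, out of 24411 genes listed in the files. They are 7 genes of RNA polymerase I and its factors, 1 transcript of the rRNA repeat (Rn45s), 3 box C/D snoRNP proteins, 4 box H/ACA snoRNP proteins, 3 abundant nucleolar proteins, 8 factors of the small subunit, 7 factors of the large subunit and 2 other nucleolar proteins. All 35 were present in the files and passed the filter on low counts in every comparison, and the lowest count of any of them in any library was 187.

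RNA was sequenced from 16 libraries of mouse embryos made by in vitro fertilisation, each a pool of 10 embryos. In the knockdown experiment 1-cell embryos were electroporated 3 hours after insemination with small interfering RNA against Pcgf5 (siPcgf5) or with a non-targeting one (siControl), and were collected at the late 2-cell stage at 36 hours (2 siPcgf5 and 2 siControl libraries) and at the morula stage at 72 hours (2 and 2). In the knockout experiment 4-cell embryos at 48 hours carried the Pcgf5 MT2C_Mm deletion as Homo KO (3 libraries) or Hetero KO (3 libraries), or were WT (2 libraries), and these are not described as electroporated. MT2C_Mm is a long terminal repeat related to MERVL, an endogenous retrovirus active at the 2-cell stage, and Pcgf5 is a subunit of a variant Polycomb repressive complex 1. Mouse strain and whether replicates came from separate fertilisations are not stated, so p-values measure the spread between these pools alone.

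Summed expected counts ran from 14310634 to 55620137 per library. The summed TPM of 8 late 2-cell markers was 8.63 to 24.4 in morula libraries and 1743 to 3096 in late 2-cell libraries, and that of 8 morula markers was 276 to 306 in morulae and 28.4 to 47.8 at the late 2-cell stage. Pcgf5 stood at 54.9 and 90.9 CPM (counts divided by a scaled library size) in siPcgf5 late 2-cell embryos, against 318 and 822 CPM in their siControl counterparts, and at 39.7 and 32.8 CPM in siPcgf5 morulae, against 248 and 169 CPM in siControl morulae. In 4-cell embryos it stood at 187, 208 and 160 CPM in Homo KO, 332, 250 and 279 CPM in Hetero KO and 328 and 289 CPM in WT. The siPcgf5 libraries thus held less of the target than their controls, and the Homo KO libraries less than WT, although edgeR called no Pcgf5 difference when adjusted over all genes (adjusted p of 0.0789 at the late 2-cell stage, 0.242 in morulae and 0.236 for Homo KO against WT).

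The 35 genes spanned a wide range of abundance. On the TPM scale, which allows for transcript length, Npm1, a histone and ribosome chaperone of the granular part of the nucleolus, averaged 4505 TPM over the 16 libraries. It was followed by the small box H/ACA proteins Nop10 at 1427 TPM and Nhp2 at 912 TPM, by Gnl3 (nucleostemin, a GTP-binding protein) at 672 TPM and by Polr1d, a subunit shared by RNA polymerases I and III, at 656 TPM. At the other end were Polr1a, the largest subunit of RNA polymerase I, at 4.64 TPM, and the large scaffold protein Utp20 at 5.45 TPM. Rrp12, an export factor of the preribosome, averaged 6.72 TPM and Bop1, of the PeBoW complex that matures the large subunit, 8.01 TPM. Without Rn45s, the genes together took 0.878 ± 0.0273% of counts in siPcgf5 late 2-cell libraries and 0.813 ± 0.180% in siControl late 2-cell libraries (SD, n = 2 each). In 4-cell libraries they took 1.49 ± 0.0655% in Homo KO, 1.53 ± 0.0867% in Hetero KO (SD, n = 3 each) and 1.67 ± 0.0200% in WT (SD, n = 2), and in morulae 1.44 ± 0.0345% in siPcgf5 and 1.43 ± 0.0847% in siControl (SD, n = 2 each). All values are shares of the RNA in a pool, so a larger share and more mRNA per embryo cannot be told apart, and neither can fewer cells that use a gene and less RNA per cell.

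**Figure D1:**
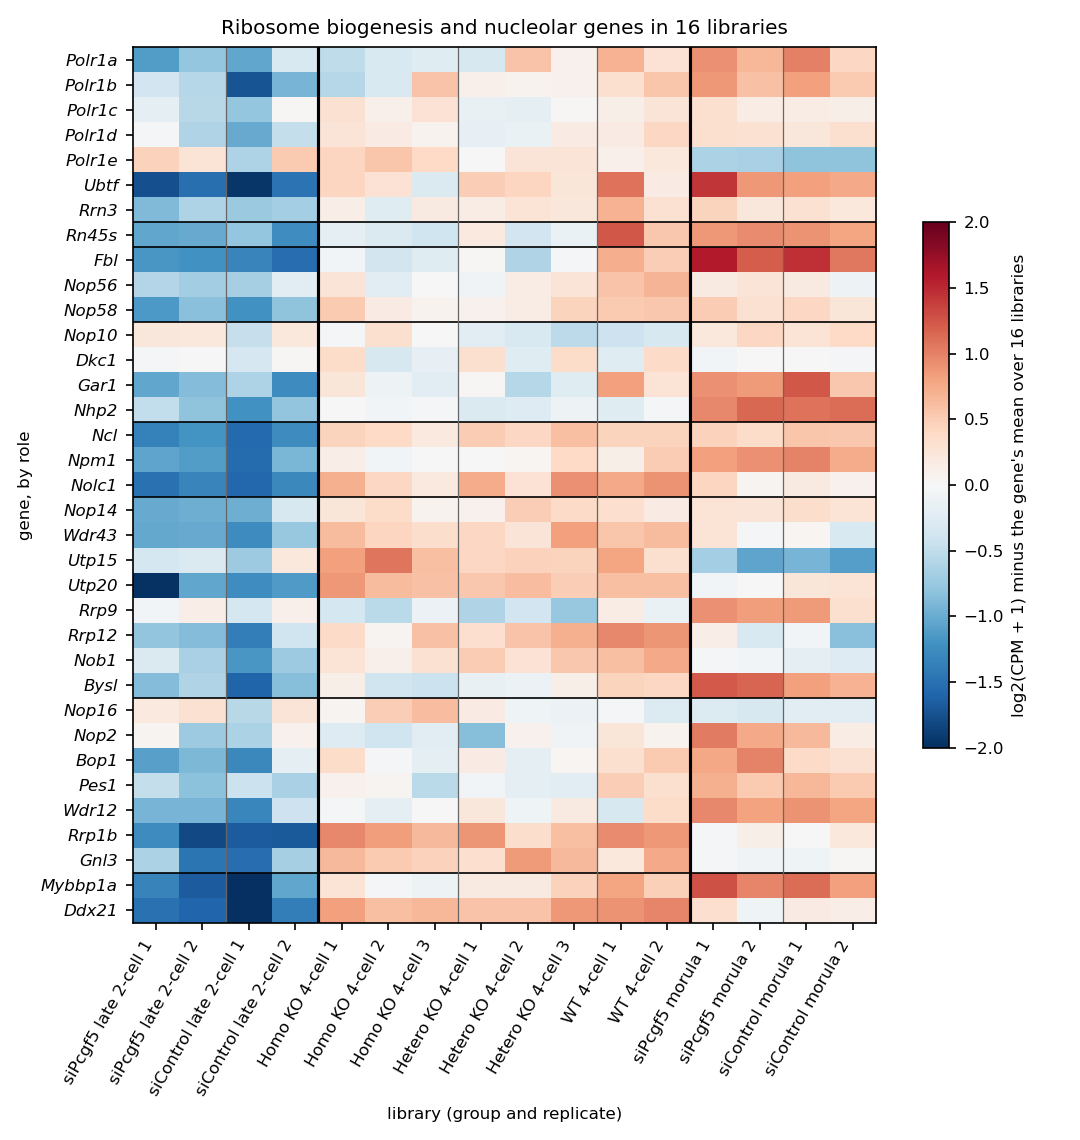
Level of each of the 35 genes (down the page, by role) in each of the 16 libraries (across), as log2(CPM + 1) minus the gene's own mean over the libraries; colours end at -2 and 2. Most genes are below their mean in the 4 late 2-cell libraries on the left and above it in the 4 morula libraries on the right, with Polr1e, Utp15 and Nop16 among the exceptions.

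On the CPM scale most of the ribosome biogenesis genes were higher in morulae than in late 2-cell embryos, with or without Pcgf5 knockdown, while on the deposited TPM scale 14 of 35 were called higher in each treatment. edgeR called 26 of 35 higher and 1 lower in siPcgf5 morulae against siPcgf5 late 2-cell embryos (adjusted p under 0.05), where it called 24.5% of all tested genes higher and 28.2% lower. In siControl morulae against siControl late 2-cell embryos it called 26 higher and 2 lower, against 24.9% and 28.1% of all tested genes. The median log2 fold change of the 35 genes was 1.3 in siPcgf5 and 1.18 in siControl, where that of all tested genes was -0.38 and -0.34. With limma on log2(TPM + 1), 14 were called higher and 5 lower in siPcgf5, against 15.2% and 40.6% of all tested genes. In siControl it called 14 and 6, against 14.6% and 43.8% of all tested genes. Several directions given below turn on the TPM scale, as set out after the roles. Of the genes called higher with edgeR, 24 were called in both treatments. In this fit Nop56 and Nop2 were called in siPcgf5 and not in siControl, and Polr1d and Nob1 in siControl and not in siPcgf5, but other settings call Polr1d in siPcgf5 and Nop56 in siControl, and the test of the difference between the 2 stage changes called none of the 35. The call was kept whichever library was left out by 22 of the 26 genes called higher in siPcgf5 and by 20 of the 26 in siControl. Other marker sets moved with stage as well. The summed TPM of 6 oocyte markers was 39.3 to 61.7 in morulae and 26837 to 43404 at the late 2-cell stage, that of 6 blood markers 35 to 86.0 and 1081 to 1447, that of 6 sperm markers 1.97 to 3.83 and 52.9 to 77.9, and that of 8 cumulus and granulosa markers 0 to 0.14 and 22.7 to 39.0. In each late 2-cell library 3 or 4 of the 6 blood markers had 0 counts. The same held for 2 to 4 of the 8 cumulus and granulosa markers. The part of these marker sets in the stage changes was not tested. Fold changes below are log2 CPM fold changes with their standard error (SE), morula over late 2-cell.

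Of the RNA polymerase I genes, 4 of 7 rose and 1 fell in siPcgf5, and 5 rose and 1 fell in siControl. Ubtf, the architectural factor that keeps rRNA genes open, stood at 116 and 78.6 CPM in siPcgf5 morulae and 11.9 and 14.4 CPM in siPcgf5 late 2-cell embryos. It stood at 76.4 and 72.8 CPM in siControl morulae and 10.3 and 14.7 CPM in siControl late 2-cell embryos. Every morula library lay far above every late 2-cell library, with log2 fold changes of 2.88 (SE 0.296, edgeR adjusted p 2.11e-05) and 2.58 (SE 0.293, adjusted p 3.80e-05). Polr1b, the second largest polymerase subunit, had 58.4 and 47.6 CPM in siPcgf5 morulae and 24.0 and 21.0 CPM in siPcgf5 late 2-cell embryos, against 56.2 and 45.5 CPM in siControl morulae and 8.83 and 16 CPM in siControl late 2-cell embryos. Its log2 fold change was 1.23 in siPcgf5 and 2.04 in siControl, a difference of -0.81 (SE 0.438) that did not pass (edgeR adjusted p 0.982). Polr1a had 1.81 in siPcgf5 and 1.43 in siControl, where the call was lost without siControl morula replicate 1 (1.10). Rrn3, which carries RNA polymerase I to the promoter, had 1.10 and 1.00. Polr1d had 0.61 (SE 0.248) in siPcgf5, which was not called, and 1.00 (SE 0.25) in siControl, which was. With no filter on low counts (0.61, edgeR adjusted p 0.0421), with only the groups compared (0.54, 0.0390) or without siPcgf5 late 2-cell replicate 1 (0.91, 0.0281) it was called in siPcgf5 too, and on log2(TPM + 1) it had -0.24 and -0.0038. Polr1c, shared with RNA polymerase III, had 0.60 in siPcgf5 and 0.45 in siControl and was called in neither, but it was called in siPcgf5 with only the groups compared (0.53) and in siControl without siControl late 2-cell replicate 2 (0.86).

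Polr1e, a polymerase subunit that helps it start, went the other way. It stood at 106 and 105 CPM in siPcgf5 morulae and 227 and 200 CPM in siPcgf5 late 2-cell embryos, and at 93.5 and 94.0 CPM in siControl morulae and 107 and 238 CPM in siControl late 2-cell embryos. All morula libraries lay below the late 2-cell libraries of their own treatment, although siControl late 2-cell replicate 1 came close. The log2 fold changes were -1.03 (SE 0.316, edgeR adjusted p 0.0189) in siPcgf5 and -0.88 (SE 0.315, adjusted p 0.0369) in siControl. In siControl, leaving out late 2-cell replicate 2 (-0.24), morula replicate 1 (-0.87) or morula replicate 2 (-0.87) ended the call. In siPcgf5, leaving out late 2-cell replicate 1 (-0.94), morula replicate 1 (-1.02) or morula replicate 2 (-1.02) did so.

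Rn45s, annotated as the 45S precursor of the rRNA repeat, stood at 616 and 651 CPM in siPcgf5 morulae and 165 and 167 CPM in siPcgf5 late 2-cell embryos, and at 631 and 588 CPM in siControl morulae and 197 and 142 CPM in siControl late 2-cell embryos. The stages did not overlap, with log2 fold changes of 1.92 (SE 0.218, edgeR adjusted p 3.96e-05) and 1.85 (SE 0.218, adjusted p 4.87e-05). The labels describe polyadenylated RNA and the repeat has many near-identical copies, so these counts do not measure how much precursor rRNA the embryos held.

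The box C/D snoRNPs guide methylation of rRNA, and all 3 of their proteins rose in siPcgf5 and 2 of 3 in siControl. Fbl (fibrillarin, the methyltransferase) had 156 and 121 CPM in siPcgf5 morulae and 22.5 and 21.6 CPM in siPcgf5 late 2-cell embryos, and 144 and 108 CPM in siControl morulae and 20.0 and 17.2 CPM in siControl late 2-cell embryos. All morula libraries lay above all late 2-cell libraries, and the log2 fold changes of 2.64 (SE 0.251, edgeR adjusted p 1.28e-05) and 2.76 (SE 0.252, adjusted p 9.37e-06) were among the largest of the 35 genes. Its partner Nop58 had 1.39 and 1.33. Nop56, the other scaffold of the same particle, moved less. It had 357 and 380 CPM in siPcgf5 morulae against 210 and 195 CPM in siPcgf5 late 2-cell embryos (0.86, SE 0.22, edgeR adjusted p 0.00750), and 357 and 296 CPM in siControl morulae against 199 and 270 CPM in siControl late 2-cell embryos (0.48, SE 0.219, adjusted p 0.0857). The siPcgf5 call was lost without siPcgf5 morula replicate 2 (0.81), and without siControl late 2-cell replicate 2 the siControl change was called (0.67, edgeR adjusted p 0.0119).

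The box H/ACA snoRNPs guide pseudouridylation, and 2 of their 4 proteins rose in siPcgf5 and in siControl. Nhp2 had 1189 and 1354 CPM in siPcgf5 morulae and 431 and 350 CPM in siPcgf5 late 2-cell embryos, and 1299 and 1321 CPM in siControl morulae and 263 and 351 CPM in siControl late 2-cell embryos. Gar1 had 35.3 and 33.8 CPM in siPcgf5 morulae and 8.45 and 9.64 CPM in siPcgf5 late 2-cell embryos, against 44.6 and 27.0 CPM in siControl morulae and 11.6 and 7.12 CPM in siControl late 2-cell embryos. For both genes the stages did not overlap, with log2 fold changes of 1.70 and 2.10 for Nhp2 and 1.93 and 1.94 for Gar1, in siPcgf5 and siControl. The pseudouridine synthase Dkc1 (dyskerin) had -0.02 and 0.12, and Nop10 had 0.08 and 0.42. Neither of these was called in siPcgf5 or in siControl. Without siControl late 2-cell replicate 2, Nop10 had 0.75 in siControl and was called (edgeR adjusted p 0.00219), and on log2(TPM + 1) Dkc1 and Nop10 were both called lower in siPcgf5 and in siControl.

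The 3 abundant nucleolar proteins rose in siPcgf5 and in siControl. Npm1 had 7571 and 8122 CPM in siPcgf5 morulae and 2057 and 1972 CPM in siPcgf5 late 2-cell embryos, and 8504 and 7174 CPM in siControl morulae and 1472 and 2277 CPM in siControl late 2-cell embryos. No library of one stage reached the other stage, with log2 fold changes of 1.95 (SE 0.251) and 2.07 (SE 0.252). Ncl (nucleolin, an RNA-binding protein of the rRNA transcription sites) had 1.67 and 1.95, and Nolc1 (Nopp140, a snoRNP chaperone) had 1.66 and 1.57.

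Of the 8 small subunit factors, 5 rose in siPcgf5 and none fell, and 6 rose and 1 fell in siControl. Bysl, needed for late maturation of the small subunit, had 96.0 and 92.3 CPM in siPcgf5 morulae and 21.8 and 26.2 CPM in siPcgf5 late 2-cell embryos, and 72.5 and 66.1 CPM in siControl morulae and 12.7 and 22.0 CPM in siControl late 2-cell embryos. Its morula levels were above every late 2-cell level, with log2 fold changes of 1.96 (SE 0.290) and 2.00 (SE 0.291). Utp20 had 1.46 and 1.51, Nop14 1.27 and 0.94, Wdr43 1.14 and 0.87, and Rrp9 0.85 and 0.75, all of them members of the processome that folds the small subunit precursor. The Wdr43 call in siControl was lost without siControl morula replicate 1 (0.69). The Rrp9 call in siPcgf5 ended when any 1 of the 4 libraries was left out (0.75 to 0.97), and that in siControl without siControl late 2-cell replicate 1 (0.54) or morula replicate 1 (0.46). Nob1, the endonuclease of the last cleavage, had 0.40 in siPcgf5, which was not called, and 0.72 in siControl, which was. On log2(TPM + 1) it had -0.45 and -0.27, so its direction turns with the scale, and the siControl call ended when morula replicate 1 (0.69), morula replicate 2 (0.78) or late 2-cell replicate 1 (0.52) was left out. Rrp12 had 0.80 and 0.45 and was called in neither. Utp15, of the same complex as Wdr43, had 82.3 and 63.2 CPM in siPcgf5 morulae and 103 and 107 CPM in siPcgf5 late 2-cell embryos, and 68.9 and 60.9 CPM in siControl morulae and 79.1 and 152 CPM in siControl late 2-cell embryos. It fell by 0.83 on the log2 scale in siControl (SE 0.299, edgeR adjusted p 0.0378), a call that ended when siControl late 2-cell replicate 2 (-0.33), morula replicate 1 (-0.92) or morula replicate 2 (-0.73) was left out, and its -0.54 in siPcgf5 was not called, except with only the groups compared (-0.61) and on log2(TPM + 1) (-1.36).

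Of the 7 large subunit factors, 6 rose in siPcgf5 and 5 in siControl, and none fell. The 3 PeBoW proteins all rose, with 2.00 (SE 0.407) in siPcgf5 and 1.06 in siControl for Bop1, 1.3 and 1.18 for Pes1 (pescadillo), and 1.81 and 1.65 for Wdr12. In siControl, leaving out morula replicate 1 (1.02), morula replicate 2 (1.11) or late 2-cell replicate 1 (0.57) ended the Bop1 call. Rrp1b, a regulator of a nucleolar phosphatase, had 67.8 and 76.0 CPM in siPcgf5 morulae and 28.7 and 19.2 CPM in siPcgf5 late 2-cell embryos, and 69.5 and 80.7 CPM in siControl morulae and 21.2 and 21.1 CPM in siControl late 2-cell embryos. Its stages were well apart, with log2 fold changes of 1.58 and 1.83 (SE 0.259). Gnl3 rose by 0.93 (SE 0.318) in siPcgf5, a call that ended when siPcgf5 late 2-cell replicate 2 (0.60), morula replicate 1 (0.93) or morula replicate 2 (0.95) was left out. It rose by 1.00 (SE 0.319) in siControl, a call that ended when siControl late 2-cell replicate 1 (0.65), morula replicate 1 (1.07) or morula replicate 2 (0.96) was left out. Nop2, an rRNA methyltransferase, rose by 1.22 in siPcgf5, a call lost without siPcgf5 late 2-cell replicate 2 (0.89) or morula replicate 1 (1.08), and had 0.68 in siControl. Nop16 was the exception, with -0.56 in siPcgf5 and -0.13 in siControl, and edgeR called it in neither. DESeq2 called it lower in siPcgf5 (-0.65), as did edgeR with only the groups compared (-0.63), and edgeR without siControl late 2-cell replicate 1 called it lower in siControl (-0.47).

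The other nucleolar proteins, Mybbp1a and Ddx21, rose in both. Mybbp1a, which binds transcription factors in the nucleolus, had 177 and 143 CPM in siPcgf5 morulae and 28.1 and 22.1 CPM in siPcgf5 late 2-cell embryos, and 159 and 128 CPM in siControl morulae and 13.1 and 34.9 CPM in siControl late 2-cell embryos. The stages did not overlap, and the siControl late 2-cell libraries were the pair with the widest ratio. The log2 fold changes were 2.66 (SE 0.402) and 2.59 (SE 0.402). Ddx21, an RNA helicase that links RNA polymerase I and II transcription, had 1.68 and 1.85.

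**Figure D2:**
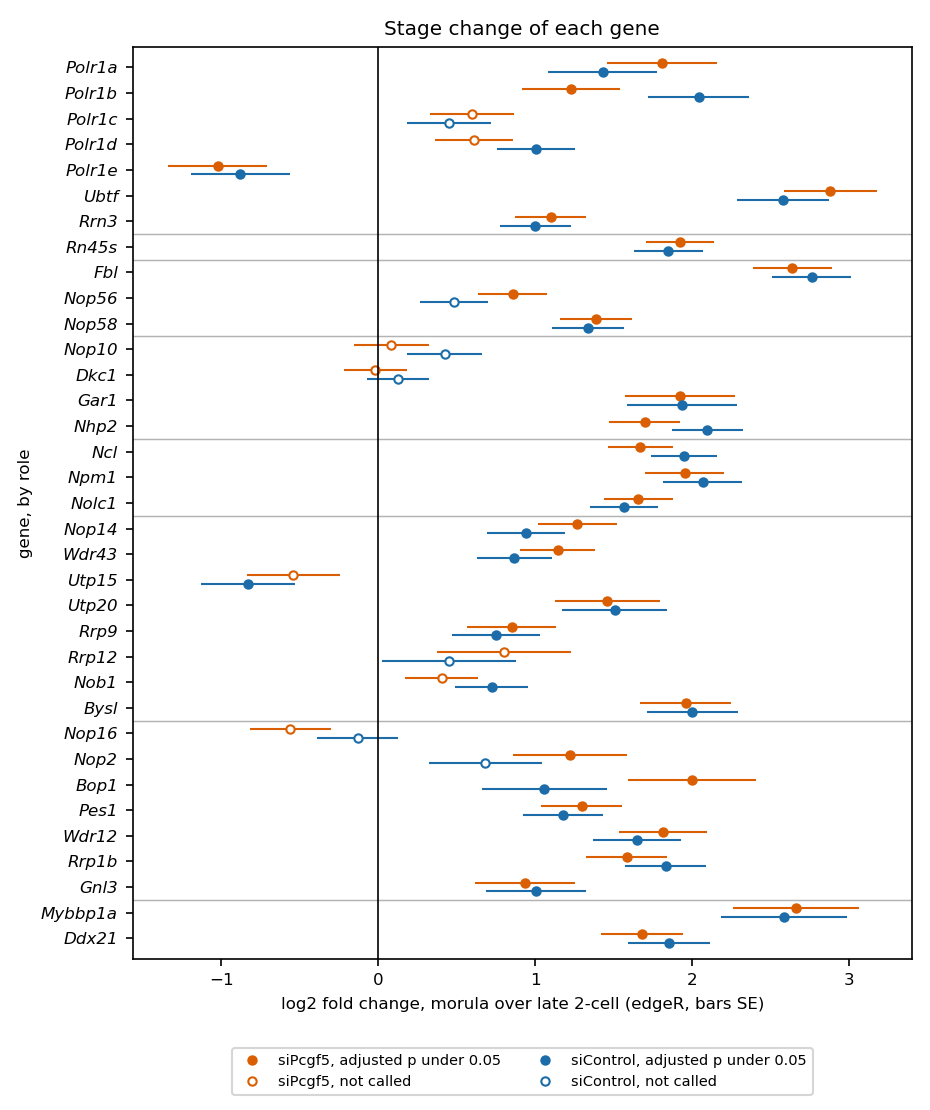
Log2 fold change in CPM, morula over late 2-cell, for each of the 35 genes by role, in siPcgf5 (orange) and siControl (blue); bars are the SE of the edgeR fit and filled points have an adjusted p under 0.05. Points lie to the right of 0 for most genes, up to 2.88 for Ubtf in siPcgf5, while Polr1e and Utp15 lie to the left.

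The size of this stage change depended on the scale. The deposited TPM divide each count by transcript length and sum to a fixed total per library, which CPM do not. With limma on log2(TPM + 1), 14 of 35 were called higher and 5 lower in siPcgf5, against 15.2% and 40.6% of all tested genes. In siControl 14 were called higher and 6 lower, against 14.6% and 43.8% of all tested genes. The median of the 35 genes was then 0.39 in siPcgf5 and 0.16 in siControl, while that of all tested genes was -0.42 and -0.50. Of the 26 genes called higher on CPM in siControl, 14 were also called higher on TPM. These were Fbl, Ncl, Npm1, Gar1, Nhp2, Polr1b, Ubtf, Wdr12, Rrp1b, Nolc1, Bysl, Mybbp1a, Ddx21 and Rn45s. The other 12 were not called on TPM, and 6 of them were below 0 there, namely Nop14 (-0.03), Polr1d (-0.0038), Rrn3 (-0.01), Wdr43 (-0.13), Rrp9 (-0.27) and Nob1 (-0.27). Nop56 (-0.52) and Nop10 (-0.59), not called on CPM, were called lower on TPM in siControl. Among the 5356 genes with a mean of at least 10 TPM in the siControl libraries, the median log2 change was 0.41 on CPM and -0.57 on TPM, and the 28 of the 35 genes in that range had medians of 1.04 and 0.02. In siPcgf5 these medians were 0.40 and -0.45 over 5211 genes, and 1.26 and 0.39 over 29 of the 35. On either scale the medians of the genes described here thus lay above those of abundant genes. They were above 0 on both scales, but only 0.02 in siControl on TPM. The medians of abundant genes were above 0 on CPM and below 0 on TPM. Of all genes called on TPM in siControl 25.0% were higher, against 47.0% on CPM, and in siPcgf5 27.2% against 46.5%. DESeq2 size factors shifted the median of all genes in siControl to -0.51 and left 23 of the 35 called higher.

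Promoters are shown because most of the 35 genes were called higher in morulae than in late 2-cell embryos on CPM. A further reason is that the letters searched are frequent in promoters of growth genes. These letters were CACGTG (the E-box bound by MYC and USF proteins), CCGGAA (the core bound by ETS factors) and TCTCGCGA (found in housekeeping promoters). Of the 35 genes, 30 had 38 promoters in the RefSeq table of GRCm38.p6, and the 250 bases before each start in that table were searched on both strands. CACGTG reads the same on both strands, while CCGGAA and TCTCGCGA do not, and the matches printed below do not overlap. CACGTG was found in 2 of 38 (5.26%), against 6.02% of all 32851 promoters in the table. CCGGAA was found in 9 of 38 (23.7%), against 12% of all. TCTCGCGA was found in 2 of 38 (5.26%), against 0.858% of all. The 9 genes with CCGGAA were Bysl, Gar1, Nhp2, Nolc1, Nop2, Nop58, Polr1c, Rrp9 and Utp15, and they included genes that rose, such as Nhp2, and Utp15, which fell in siControl. These are matches of letters, not binding sites. Rrn3 is printed as the gene that holds CACGTG and was called in siControl. Nop58 and Nop14, which hold TCTCGCGA, were chosen after their letters were seen. Capitals mark the motifs, and each sequence runs 5′ to 3′ on the gene's strand from 250 bases before the start in the table to the last base before the gene. For Nop58 the table's start lies 45 bases inside the gene as annotated, so 205 bases are printed.
Rrn3, GRCm38.p6 chr16:13780449-13780698, plus strand: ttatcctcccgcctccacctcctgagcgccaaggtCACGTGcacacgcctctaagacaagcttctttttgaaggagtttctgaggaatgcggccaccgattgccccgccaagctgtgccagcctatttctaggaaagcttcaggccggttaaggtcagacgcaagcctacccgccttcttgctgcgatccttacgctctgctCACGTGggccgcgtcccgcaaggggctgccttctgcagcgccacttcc
Nop58, GRCm38.p6 chr1:59684756-59684960, plus strand: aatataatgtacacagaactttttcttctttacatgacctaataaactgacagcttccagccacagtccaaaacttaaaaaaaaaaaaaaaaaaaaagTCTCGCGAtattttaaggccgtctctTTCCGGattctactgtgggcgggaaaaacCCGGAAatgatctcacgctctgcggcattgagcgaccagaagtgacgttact
Nop14, GRCm38.p6 chr5:34660149-34660398, minus strand: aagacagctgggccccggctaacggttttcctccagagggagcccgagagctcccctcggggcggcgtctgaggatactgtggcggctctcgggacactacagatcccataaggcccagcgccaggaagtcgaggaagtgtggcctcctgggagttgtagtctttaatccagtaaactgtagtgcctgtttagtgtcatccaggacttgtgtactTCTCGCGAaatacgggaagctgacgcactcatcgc
In Rrn3 the CACGTG copies lie 215 to 210 and 48 to 43 bases before the start. In Nop58 the TCTCGCGA lies 152 to 145 bases before the table's start, with CCGGAA 97 to 92 bases before it and, on the opposite strand (read here as TTCCGG), 126 to 121 bases before it. In Nop14 the TCTCGCGA lies 35 to 28 bases before the start. Rrn3 rose by 1.10 in siPcgf5 and 1.00 in siControl, Nop58 by 1.39 and 1.33, and Nop14 by 1.27 and 0.94, so these 3 genes had stage changes near the median of the 35.

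WT 4-cell embryos fall between these stages, and the 3 stages were set side by side in a fit over all 16 libraries. The siControl embryos were electroporated and belong to another experiment than the WT embryos, so stage and experiment cannot be told apart here. Most of the 35 genes were already higher in the 4-cell embryos. In WT 4-cell against siControl late 2-cell embryos edgeR called 28 of 35 higher and 0 lower, where it called 17.5% of all tested genes higher and 15.2% lower, with a median log2 fold change of 1.55 for the 35 genes and -0.33 for all tested genes. In siControl morulae against WT 4-cell embryos it called 3 higher and 9 lower, against 14.9% and 15.3% of all tested genes, with medians of -0.10 and 0.00. Of the 28 genes higher by the 4-cell stage, 18 were not called after it, 8 were called lower after it and 2 were called higher again.

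The 18 genes that were higher in 4-cell embryos and not called after that included the central factors of rRNA synthesis. Ubtf stood at 10.3 and 14.7 CPM in siControl late 2-cell, 91.4 and 48.2 CPM in WT 4-cell and 76.4 and 72.8 CPM in siControl morula libraries (2.51, SE 0.339, for the step to the 4-cell stage). Fbl stood at 20.0 and 17.2 CPM, then 86.2 and 72.8 CPM, then 144 and 108 CPM (2.12, SE 0.266, for the step to the 4-cell stage). Fbl was higher again in morulae, but its 0.63 for that step was not called. Npm1 (1.55, SE 0.226), Gar1 (1.59, SE 0.365), Utp20 (1.88, SE 0.286), Polr1d (1.05, SE 0.224) and Gnl3 (1.57, SE 0.297) belong to the same group, as does Rn45s (1.96, SE 0.248).

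The 8 genes that rose to the 4-cell stage and were lower in morulae than in 4-cell embryos were Nop56, Wdr43, Utp15, Rrp1b, Rrp12, Nolc1, Nob1 and Ddx21. Ddx21 stood at 60.4 and 96.4 CPM in siControl late 2-cell, 473 and 499 CPM in WT 4-cell and 285 and 279 CPM in siControl morula libraries. Rrp1b stood at 21.2 and 21.1 CPM, then 136 and 128 CPM, then 69.5 and 80.7 CPM. In both genes the 4-cell libraries stood above all libraries of the other stages, with log2 fold changes of 2.66 (SE 0.236) and -0.82 (SE 0.223) for the 2 steps of Ddx21 and 2.67 (SE 0.25) and -0.85 (SE 0.236) for those of Rrp1b. Nolc1 stood at 160 and 193 CPM, then 805 and 886 CPM, then 539 and 504 CPM. Utp15 stood at 79.1 and 152 CPM, then 228 and 165 CPM, then 68.9 and 60.9 CPM, so that it was lowest in morulae. Its last step, -1.63 (SE 0.273, edgeR adjusted p 0.00029), was the largest of the 9 falls, ahead of Rrp12 (-1.39, SE 0.375), Nob1 (-0.94, SE 0.208), Wdr43 (-0.75, SE 0.228), Nolc1 (-0.73, SE 0.231) and Nop56 (-0.61, SE 0.210). Polr1e was not called in the step to 4 cells and fell after it (-1.0, SE 0.266), with 93.5 and 94.0 CPM in siControl morulae and 176 and 190 CPM in WT 4-cell embryos.

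Of the 4 box H/ACA proteins, Nhp2 and Nop10 were called higher in morulae than in 4-cell embryos, and Gar1 and Dkc1 were not called. Wdr12 was called higher as well. Nhp2 stood at 263 and 351 CPM in siControl late 2-cell, 516 and 590 CPM in WT 4-cell and 1299 and 1321 CPM in siControl morula libraries, with 1.21 (SE 0.188, edgeR adjusted p 0.000152) for the step to the morula. Nop10 stood at 462 and 735 CPM, then 476 and 506 CPM, then 766 and 836 CPM, with 0.67 (SE 0.213), and Wdr12 at 70.2 and 131 CPM, then 141 and 225 CPM, then 326 and 304 CPM, with 0.75 (SE 0.267). On the log2(TPM + 1) scale Nop10 had -0.04 for that step, so its direction flips with the scale, and Nhp2 was the 1 gene called higher. On that scale 24 of 35 were called higher and 1 lower in 4-cell against late 2-cell embryos. Of all tested genes 14.3% were called higher there and 31.4% lower. In morulae against 4-cell embryos 1 of 35 was called higher and 19 lower, where 10% and 21.5% of all tested genes were. The medians of all tested genes moved to -0.29 and -0.17 and those of the 35 genes to 1.18 and -0.72. All 28 genes called higher by the 4-cell stage on CPM were above 0 on TPM, and all 9 called lower after it on CPM were called lower on TPM. Of all genes called on TPM, 31.4% were higher in the step to the 4-cell stage, against 53.6% on CPM, and 31.8% in the step to the morula, against 49.4%.

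Of the 28 genes called higher by the 4-cell stage, 22 kept the call whichever library was left out. Nop14, Polr1a, Bop1, Pes1, Wdr12 and Utp15 lost it without at least 1 library, and Utp15 had 0.80 with all libraries and 0.36 without siControl late 2-cell replicate 1. Nhp2, Utp15 and Nob1 kept their calls in the step to the morula whichever of the 4 libraries was left out. The number called without siControl morula replicate 1 was 1 higher and 4 lower, without siControl morula replicate 2 1 and 3, without WT 4-cell replicate 1 1 and 4, and without WT 4-cell replicate 2 it was 2 and 4, and all 12 genes kept their direction. Fitted with the groups compared alone, 19 were higher in the step to the 4-cell stage. WT replicate 1 held 359 TPM of the 8 late 2-cell markers in sum and WT replicate 2 40.6 TPM, and the part of this gap in the stage steps was not tested.

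**Figure D3:**
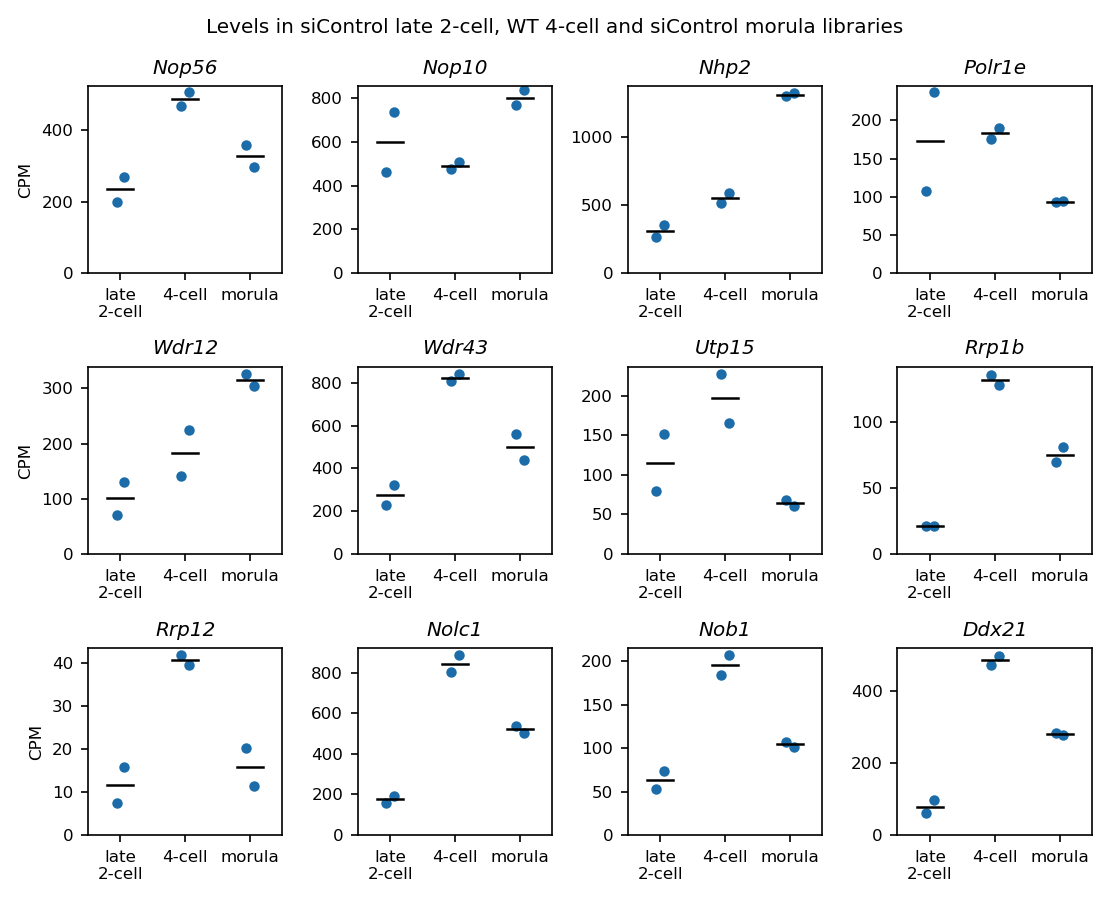
CPM of the 12 genes called in siControl morulae against WT 4-cell embryos, in siControl late 2-cell, WT 4-cell and siControl morula libraries (points, 2 each; lines, means). Ddx21, Rrp1b and Nolc1 are highest at the 4-cell stage, while Nhp2 climbs to 1299 and 1321 CPM in morulae.

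Other genes of the pathway were also mostly called higher in morulae than in late 2-cell embryos on CPM, but not on TPM. Of 147 further factors in 4 lists, edgeR called 85 higher and 6 lower in siPcgf5 morulae against siPcgf5 late 2-cell embryos, where it called 24.5% and 28.2% of all tested genes. In siControl it called 90 and 7, against 24.9% and 28.1% of all. With limma on log2(TPM + 1), a setting added for these lists after the data were seen, 37 were higher and 35 lower in siPcgf5 (15.2% and 40.6% of all tested genes) and 32 and 35 in siControl (14.6% and 43.8%), and the medians of the 147 were 0.05 and 0.02. On CPM in siControl, 11 of 18 genes of rRNA transcription rose and 3 fell, 31 of 48 small subunit factors rose and 2 fell, 31 of 55 large subunit factors rose and 1 fell, and 17 of 26 genes of snoRNP assembly and rRNA decay rose and 1 fell. Among those that rose were Polr2e, a subunit shared by all 3 nuclear RNA polymerases (1.91, SE 0.225), Twistnb, a stalk subunit of RNA polymerase I (1.66, SE 0.231), and Ruvbl2, an ATPase of the snoRNP assembly complex (4.55, SE 0.246). Among those that fell were Taf1d, of the promoter selectivity factor of RNA polymerase I (-1.37, SE 0.245), the kinase Riok1 of small subunit maturation (-1.23, SE 0.235) and the exosome cofactor Mphosph6 (-2.62, SE 0.282). Mycn, of the MYC family of growth regulators, fell by 3.61 on the log2 scale (SE 0.747). On TPM these 7 genes were called in the same directions. The cytosolic ribosomal proteins rose more, with 75 of 76 called higher in siPcgf5 (median 2.77) and 76 of 76 in siControl (median 3.24), against a siControl median of 1.00 for the 147 factors and 1.18 for the 35 genes. On TPM 74 of 76 (median 1.90) and 75 of 76 (median 2.26) were called higher. In WT 4-cell against siControl late 2-cell embryos edgeR called 107 of the 147 factors higher and 3 lower (median 1.16). It called 17.5% and 15.2% of all tested genes there. On TPM 91 were called higher and 6 lower (median 0.79), against 14.3% and 31.4% of all tested genes. Stage and experiment cannot be told apart in that step. In siControl morulae against WT 4-cell embryos 71 of 76 ribosomal proteins rose (median 1.33), while of the 147 factors 20 were called higher and 42 lower (median -0.24), where edgeR called 14.9% and 15.3% of all tested genes. On TPM 48 ribosomal proteins were called higher (median 0.62), and of the 147 factors 7 higher and 89 lower (median -0.84), against 10% and 21.5% of all tested genes.

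Pcgf5 knockdown at the late 2-cell stage asks whether the onset of these genes changes when Pcgf5 mRNA is low. None of the 35 was called in siPcgf5 against siControl late 2-cell embryos, where edgeR called 0.0118% of all tested genes, and DESeq2 and limma called none of the 35 either. The log2 fold changes ran from -0.39 to 0.87 with a median of 0.04, against -0.01 for all genes, and 20 were above 0 and 15 below. The SE of a gene was 0.20 to 0.426. Polr1b was the 1 gene of the 35 with an unadjusted p under 0.05 (947 of all tested genes, 5.58%, had one). It had 24.0 and 21.0 CPM in siPcgf5 libraries, against 8.83 and 16 CPM in siControl, a log2 fold change of 0.87 (SE 0.313, edgeR adjusted p 0.809). Nob1, with 99.8 and 77.0 CPM in siPcgf5 libraries, against 53.5 and 73.4 CPM in siControl, had 0.48 (SE 0.232, adjusted p 0.899), and Fbl, with 22.5 and 21.6 CPM in siPcgf5 libraries, against 20.0 and 17.2 CPM in siControl, had 0.25. These 3 were the genes with both siPcgf5 libraries above both siControl libraries, and 0 had both below, where 15.2% of all tested genes were above and 15.9% below. Polr1d had 0.43 (SE 0.248), Bysl 0.48 (SE 0.282) and Nhp2 0.35 (SE 0.219), each with overlapping groups.

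Much of the spread at this stage lay between the 2 siControl libraries. In 24 of the 35 genes siControl late 2-cell replicate 1 was the lowest of the 4 libraries, against 3 in siControl replicate 2 and 4 in each siPcgf5 library, where that replicate 1 was lowest in 30.5% of all tested genes. For example, Gnl3 had 576 and 326 CPM in siPcgf5 libraries, against 311 and 564 CPM in siControl, and Mybbp1a 28.1 and 22.1 CPM in siPcgf5 libraries, against 13.1 and 34.9 CPM in siControl. In Mybbp1a the 2 controls differed by more than the 2 siPcgf5 libraries, while in Gnl3 both pairs differed about equally. The groups overlapped in both genes. Without siControl replicate 1, 14 genes were above 0 and 21 below, with a median of -0.11, and without siControl replicate 2, 29 were above 0 and 6 below, with a median of 0.35. The direction of the group as a whole thus turned with the control library that was kept. That replicate 1 also held 43404 TPM of 6 oocyte markers in sum, against 26837 TPM in siControl replicate 2 and 36665 and 36083 TPM in siPcgf5, and the part of this in the result was not tested. The further processing factors had a median of 0.15 with 104 of 147 above 0, and the ribosomal proteins 0.38 with 76 of 76 above 0, and none of these was called.

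**Figure D4:**
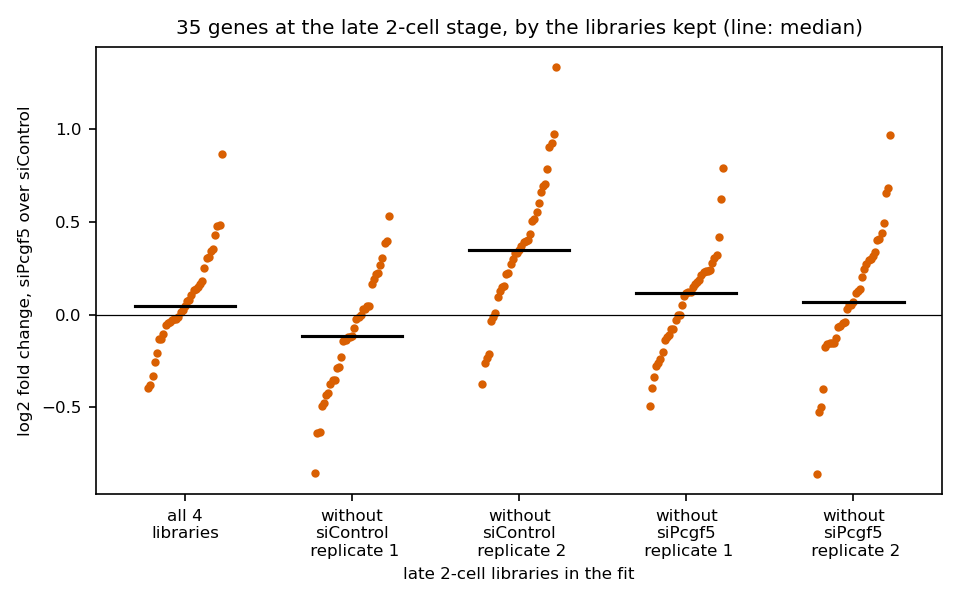
Log2 fold change in CPM, siPcgf5 over siControl, of the 35 genes at the late 2-cell stage (each set sorted; lines, medians), with all 4 libraries and with each left out in turn. The median is 0.04 with all 4, -0.11 without siControl replicate 1 and 0.35 without siControl replicate 2.

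In morulae the knockdown called none of the 35 genes, and edgeR called 0% of all tested genes. No gene of the 35 had an unadjusted p under 0.05, against 716 of all tested genes (4.22%). DESeq2 called none of the 35 and 5 higher and 18 lower among all. The log2 fold changes ran from -0.30 to 0.55 with a median of 0.05 (all genes -0.01) and an SE of 0.20 to 0.424. Bysl had 96.0 and 92.3 CPM in siPcgf5 libraries, against 72.5 and 66.1 CPM in siControl (0.44, SE 0.279), Bop1 26.5 and 31.0 CPM in siPcgf5 libraries, against 20.1 and 18.9 CPM in siControl (0.55, SE 0.392), and Ubtf 116 and 78.6 CPM in siPcgf5 libraries, against 76.4 and 72.8 CPM in siControl (0.38, SE 0.275). These were among the 8 genes with both siPcgf5 libraries above both controls, the others being Nop56, Nop2, Polr1c, Polr1e and Nob1. Ncl, Nop16, Nop14 and Utp20 had both below. Among all tested genes 14.3% were above and 17.1% below. Rn45s had 616 and 651 CPM in siPcgf5 libraries, against 631 and 588 CPM in siControl, so the groups overlapped.

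The effect of the knockdown in morulae minus that at the late 2-cell stage was called for none of the 35 genes and for 0% of all tested genes. The median difference was 0.05 for the 35 genes and -0.05 for all genes. Of the 35, 0 had an unadjusted p under 0.05, against 842 of all tested genes (4.96%). DESeq2 and limma called none of the 35, and DESeq2 called 18 higher and 14 lower among all. Polr1b had the smallest p, with the -0.81 given above. Bop1 had 0.94 (SE 0.557), Nhp2 -0.40 (SE 0.309), Nop56 0.37 (SE 0.309) and Nop16 -0.43 (SE 0.363), all with edgeR adjusted p of 0.994 or 1.00.

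At the 4-cell stage the MT2C_Mm deletion asks whether loss of the repeat, on 1 or both alleles, moves the same genes. Many of the 35 stood lower in Homo KO and Hetero KO than in WT embryos, but edgeR called none of them. In Homo KO against WT the median log2 fold change was -0.28 (all genes 0.02), 8 genes were above 0 and 27 below, and edgeR called 0% of all tested genes. In 15 of 35 genes all 3 Homo KO libraries lay below both WT libraries and in 3 all lay above, where 15.9% of all tested genes lay below and 14.6% above. An unadjusted p under 0.05 was found for 9 of the 35 and for 1701 of all tested genes (12.4%). The smallest edgeR adjusted p of the 35 was 0.203. DESeq2 called 237 genes higher and 96 lower over all genes, and Rn45s alone of the 35, lower.

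Rn45s stood at 301, 277 and 258 CPM in Homo KO, 387, 260 and 309 CPM in Hetero KO and 804 and 494 CPM in WT libraries. All 6 KO libraries lay below both WT libraries, which themselves differed widely. The log2 fold change was -1.20 in Homo KO (SE 0.226, edgeR adjusted p 0.203) and -1.02 in Hetero KO (SE 0.226, adjusted p 0.945). DESeq2 gave -1.19 for Homo KO with an adjusted p of 0.00184, and edgeR with no filter on low counts gave -1.21 with 0.00839, and these were called. Fbl stood at 49.8, 39.9 and 43.3 CPM in Homo KO, 52.2, 33.6 and 50 CPM in Hetero KO and 86.2 and 72.8 CPM in WT. Its KO and WT libraries did not overlap, with -0.83 (SE 0.246) in Homo KO and -0.81 (SE 0.246) in Hetero KO. Nop56, its partner in the box C/D particle, stood at 380, 274 and 319 CPM in Homo KO, 303, 352 and 379 CPM in Hetero KO and 468 and 508 CPM in WT, again without overlap, with -0.57 (SE 0.184) and -0.50 (SE 0.184). None of these passed with edgeR.

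Of the 5 genes with the smallest p in Homo KO against WT, 2 stood higher. Nop16 stood at 400, 538 and 588 CPM in Homo KO, 428, 362 and 354 CPM in Hetero KO and 374 and 317 CPM in WT (0.57 in Homo KO, SE 0.197, edgeR adjusted p 0.304). Nop10 stood at 620, 791 and 638 CPM in Homo KO, 540, 515 and 442 CPM in Hetero KO and 476 and 506 CPM in WT (0.49 in Homo KO, SE 0.174, adjusted p 0.313). In both, Homo KO libraries were above both WT libraries. Polr1e was the third gene with all Homo KO libraries above WT.

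In Hetero KO against WT the median was -0.29 (all genes 0.00), with 8 genes above 0 and 27 below, and edgeR called 0% of all tested genes and none of the 35. In 17 of 35 genes all 3 Hetero KO libraries lay below both WT libraries and in 0 above, where 11.2% of all tested genes lay below and 9.56% above. Gar1 had 18.7, 12 and 15.3 CPM in Hetero KO against 33.1 and 22.4 CPM in WT (-0.85, SE 0.326), and Rrp9 16.5, 19.3 and 14.7 CPM in Hetero KO against 28.5 and 23.1 CPM in WT (-0.61, SE 0.292). Both had no overlap with WT. An unadjusted p under 0.05 was found for 4 of the 35 and 655 of all tested genes (4.76%). DESeq2 called 6 genes higher and 1 lower, none of the 35. The Homo KO and Hetero KO comparisons share the same 2 WT libraries. With WT replicate 2 alone, an alternative chosen after the data were seen, 22 genes lay lower in every Homo KO and 21 in every Hetero KO library, where 30.2% and 26.0% of all tested genes did. With WT replicate 1 alone 17 and 22 did, where 29.5% and 29.0% of all tested genes did.

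In Homo KO against Hetero KO the median was -0.05 (all genes -0.01), 15 genes were above 0 and 20 below, and edgeR called none of the 35 and 0% of all tested genes. In 5 genes all Homo KO libraries were above all Hetero KO libraries, namely Nop10 (0.46, SE 0.154), Utp15 (0.42, SE 0.175), Polr1c (0.35, SE 0.147), Polr1e (0.29, SE 0.151) and Nhp2, and in 0 all were below, where 7.98% of all tested genes were above and 6.74% below. The smallest edgeR adjusted p was 0.511, for Nop10. An unadjusted p under 0.05 was found for 4 of the 35 and 1131 of all tested genes (8.22%). DESeq2 called 89 genes higher and 22 lower, none of the 35. The summed TPM of the 8 late 2-cell markers was 336, 447 and 430 in Homo KO, 214, 122 and 97.5 in Hetero KO and 359 and 40.6 in WT libraries, and that of 8 morula markers was 33.5, 17.5 and 38.4 in Homo KO, 23, 36.1 and 59.2 in Hetero KO and 38.2 and 72.1 in WT libraries. The summed TPM of 6 oocyte markers was 2127, 2284 and 4284 in Homo KO, 7533, 3108 and 1460 in Hetero KO and 2803 and 2125 in WT libraries, so that Hetero KO replicate 1 stood highest. That of 6 blood markers was 206, 277 and 305 in Homo KO, 175, 123 and 63.5 in Hetero KO and 185 and 66.7 in WT libraries. In each of these libraries 3 to 5 of the 6 blood markers had 0 counts. The part of the marker sets in the differences was not tested. The further processing factors had a median of -0.05 with 65 of 147 above 0 in Homo KO against WT, and -0.10 with 54 above 0 in Hetero KO against WT. The ribosomal proteins had -0.41 and -0.25.

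**Figure D5:**
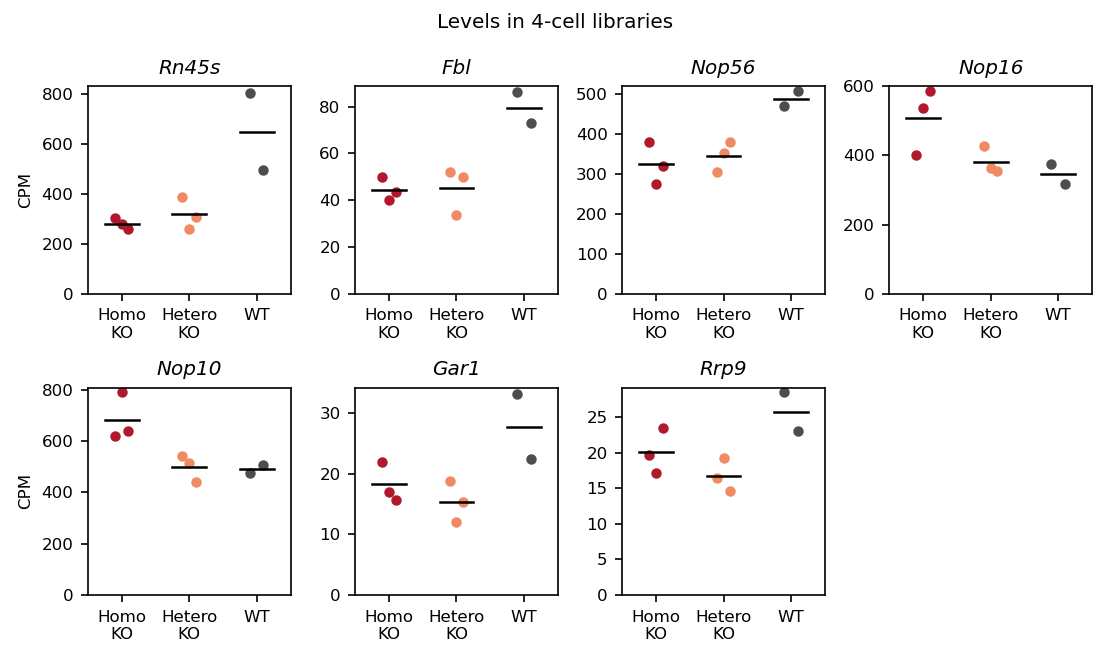
CPM in Homo KO, Hetero KO (3 libraries each) and WT (2 libraries) 4-cell embryos (points; lines, means) for the genes with the 5 smallest p-values against WT in either KO. Rn45s, Fbl, Nop56 and Gar1 are lower in all KO libraries than in WT, and Rrp9 in all Hetero KO libraries. Nop16 and Nop10 are higher in Homo KO. None was called with edgeR.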

How the data were processed

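Messenger RNA was measured in 16 libraries; the labels' protocols name the SMART-Seq v4 PLUS kit. Expected counts and TPM per gene were made by the authors with RSEM and deposited without further scaling of the counts, per the file headers. The build mm10 and the tools RSEM 1.3.3, STAR 2.7.10, deepTools and Bowtie2 2.4.5 come from the submitters' processing notes, which give no roles. The 4 H2AK119ub1 libraries were not analysed here. Summed expected counts ran from 14310634 to 55620137.

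Expected counts were rounded, and the robust, two-sided quasi-likelihood F test of edgeR 4.0.16 in R 4.3.3 was used after TMM scaling and filterByExpr with a minimum count of 10, with Benjamini-Hochberg adjustment over all genes tested and a threshold of 0.05. The 8 knockdown libraries (16980 genes), the 8 4-cell libraries (13766 genes) and, for steps across experiments, all 16 libraries (16669 genes) were fitted with 1 coefficient per group and a shared spread. Printed CPM use TMM over all 16 libraries. No pair of libraries had identical counts. TPM were tested with limma 3.58.1 on log2(TPM + 1). The other alternatives were DESeq2 1.42.0, DESeq2 size factors, no filter, a replicate block, only the groups compared, and each library left out. 34 of the 35 genes matched RefSeq symbols (GRCm38.p6), all but Rn45s.

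The 35 genes and the lists were chosen with earlier results of these data known. The genes named per comparison are every called gene where 12 or fewer were called, and otherwise, per role, the one with the highest mean TPM and the called one with the largest change, and those called against the majority. Where none was called they are the 5 with the smallest p. Genes named beside other counts were named after their values were seen.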

Additional observations from a re-analysis of the deposited data

How the results depend on the processing

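With 2 or 3 libraries a group, small counts of calls were the least firm. The number of the 35 genes called in siPcgf5 morulae against siPcgf5 late 2-cell embryos was 26 higher and 1 lower with edgeR, 14 and 5 with limma on log2(TPM + 1), 2 lower with DESeq2, 3 lower with only the groups compared, and 23 to 26 higher and 0 to 1 lower with a library left out. In siControl it was 26 higher and 2 lower, 14 and 6 with limma, 0 lower with only the groups compared, and 20 to 29 higher and 0 to 3 lower with a library left out. In WT 4-cell against siControl late 2-cell embryos it was 28 higher and 0 lower, 1 lower with limma, and 23 to 29 higher and 0 to 1 lower with a library left out. In siControl morulae against WT 4-cell embryos it was 3 higher and 9 lower, 1 and 19 with limma, and 1 to 2 higher and 3 to 4 lower with a library left out. In Homo KO against WT, 1 was lower with no filter and 1 with DESeq2, Rn45s in both.

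Among the genes named by rule in each comparison, some signs turned on log2(TPM + 1). By stage in siPcgf5 these were Nop56 (-0.01436), Nop10 (-0.7971) and Polr1d (-0.2449). By stage in siControl they were Nop56 (-0.5208), Nop10 (-0.5925), Wdr43 (-0.1293) and Polr1d (-0.00379). In morulae against 4-cell embryos Nop10 turned (-0.04028). Others of the 35 turned by stage too. They were Polr1c, Rrp9, Rrp12 and Nob1 in siPcgf5, and Nop2, Nop14, Dkc1, Polr1c, Rrn3, Rrp9, Rrp12 and Nob1 in siControl. Nop10 in siPcgf5 also turned with DESeq2 size factors (-0.01308) and with DESeq2 (-0.01307), and ran from -0.01855 to 0.1877 with a library left out. In WT 4-cell against siControl late 2-cell embryos Nop10 ran from -0.593 to 0.06027 with a library left out. Of all settings for the named genes, 825 values kept direction and side of the threshold, 59 lost a call, 9 gained one and 12 turned. Over all genes, calls in siPcgf5 against siControl late 2-cell embryos were 1 higher and 1 lower with edgeR, 14 and 14 with no filter, and 27 and 45 with DESeq2. In siControl by stage they were 4220 and 4766 with edgeR and 2474 and 7431 with limma. Of the 147 further factors, 85 were higher and 6 lower in siPcgf5 by stage with edgeR and 37 and 35 with limma, and 90 and 7 in siControl against 32 and 35. The cause of these changes was not tested.

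Replicate numbers were not taken to pair libraries. Deviations of same-numbered libraries correlated at -0.0887 at the late 2-cell stage and -0.00303 in morulae in the knockdown, and from -0.19 to 0.333 in the 4-cell comparisons with WT. With the replicate block, 26 genes were called higher and 1 lower in siPcgf5 by stage, 25 and 0 in siControl, 28 and 0 in WT 4-cell against siControl late 2-cell embryos and 3 and 8 in siControl morulae against WT 4-cell embryos, and none of the 35 in the other comparisons.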
